A study of Mus musculus with 14 samples.

Results

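The transforming growth factor beta (TGF-beta) ligands, their receptors and the SMAD proteins closest to those receptors were examined through 10 genes, Tgfb1, Tgfb2, Tgfb3, Ltbp1, Tgfbr1, Tgfbr2, Tgfbr3, Smad2, Smad3 and Smad7. Every probe set (the group of short probes that reads one transcript region) annotated to one of these symbols was taken, which gave 25 probe sets of the 45037 on the array that are not controls. They were followed in 3 groups of mice with MxCre and 3 without it. The Cre+ groups carried MxCre together with the floxed alleles Fk1 L/L, Fk2 L/L and Afx L/L. The control groups carried the same 3 pairs of floxed alleles, were labelled MxCre-, and shared the FVBn background. Floxed means flanked by sites that Cre recombinase cuts, and Fk1, Fk2 and Afx are older names for the transcription factor genes Foxo1, Foxo3 and Foxo4. The study asks whether these FoxO factors act as redundant tumour suppressors in some lineages and how they govern endothelial cells. There were 3 Cre+ and 3 control arrays of liver sinusoidal endothelial cells (LSEC), 2 and 2 of lung endothelial cells, and 2 and 2 of thymus, 14 in all. The Mx promoter responds to interferon and is not specific to endothelium, so MxCre is not restricted to the cells profiled. Age, sex and the agent used to induce Cre were not given in the sources used here, and the labels do not say whether replicates came from separate animals, so p-values measure the spread between these samples only.

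TGF-beta is secreted in a latent complex with its own propeptide, which LTBP proteins anchor to the extracellular matrix. Once released, the ligand binds the type II receptor Tgfbr2, which recruits and phosphorylates a type I receptor such as Tgfbr1 (also called ALK5), and SMAD2 and SMAD3 carry the signal to the nucleus with SMAD4. In endothelium the same ligands can also engage the type I receptor Acvrl1 (ALK1), and the pathway is known for its roles in vessel growth and vessel wall stability.

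The deposited values were read as log2 levels and all arrays were quantile normalised. A probe set was tested where its highest tissue mean reached 6.868, the 40th percentile, which kept 27022 probe sets. Of the 25 TGF-beta probe sets 19 passed, and each of the 10 genes had at least 1 among them. The 6 left out were 1438303_at and 1450922_a_at of Tgfb2, 1419786_at and 1447547_at of Ltbp1, 1420893_a_at of Tgfbr1 and 1422019_at of Tgfbr2. A probe set that passed through 1 bright tissue can still be dim elsewhere. A probe set counted as higher or lower when its adjusted p was under 0.05, from limma with Benjamini-Hochberg adjustment over all 27022 probe sets.

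The labels were checked first. In LSEC the Cre+ arrays had lower Foxo1 signal on 3 probe sets, with log2 fold changes (Cre+ minus control) of -0.93, -2.10 and -3.56 (adjusted p = 0.00145, 2.66e-05 and 2.9e-05). Foxo4 differed by -2.15 (adjusted p = 0.000209) and Foxo3 by -0.58 and -0.53 (adjusted p = 0.00968 and 0.00473), while Foxo3 1450236_at did not pass (-0.29, adjusted p = 0.278). In thymus the log2 fold changes were -1.19, -1.02 and -1.80 for Foxo1 and -3.24 for Foxo4 (adjusted p = 0.00996, 0.042, 0.0374 and 0.000501), while Foxo3 1434832_at was higher by 0.68 (adjusted p = 0.0216). Of these thymus calls that of Foxo4 was kept without each array and the others were lost without at least 1 thymus array. In lung no Foxo probe set passed, with log2 differences of -0.51, -1.06 and -1.29 for Foxo1, -1.10 for Foxo4 and 0.30, 0.10 and 0.01 for Foxo3. Foxo1 1456529_at and Foxo4 1422149_at did not reach the filter level and were not tested. In LSEC they differed by 1.73 (4.42 in Cre+ and 2.7 in control arrays) and by -0.1. Whether the Foxo probes lie inside the deleted exons is not known here, so they are a partial check. The panendothelial marker list averaged 9.97 to 10.21 in LSEC Cre+ arrays and 10.30 to 10.63 in LSEC controls, with 1 of 10 markers, Cldn5, lower. The LSEC marker list averaged 8.78 to 9.49 in Cre+ arrays and 10.51 to 11.03 in controls, with 6 of 10 markers lower, among them Lyve1, Stab1 and Clec4g. The lung arrays also carried lung epithelial markers (mean levels 10.06 to 10.19 in Cre+ and 9.94 to 10.10 in control) and stellate, fibroblast and mural markers (9.82 to 10 in Cre+ and 9.92 to 10.07 in control).

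In LSEC, the 2 tested probe sets of Tgfb2 and 1 of 3 of Smad3 rose in the Cre+ arrays, and 1 of 2 of Tgfbr3 fell. Of the 19 probe sets tested, 3 were higher, 1 was lower and 15 did not pass, where 5.21% of all probe sets tested passed in either direction, 2.62% higher and 2.6% lower. The 3 genes are a ligand, a co-receptor and a signal transducer. An unadjusted p under 0.05 was reached by 9 of the 19. The share of all probe sets or genes with such a p was not computed, and it need not equal the 0.05 threshold. This count and the later counts of unadjusted p-values thus have no background beside them and are descriptions. The 3 Cre+ and 3 control arrays did not overlap for 9 of the 19, against a background of 22.9%. The median log2 fold change (Cre+ minus control) of the 19 was 0.14, beside 0.01 over all probe sets tested. With only the 6 LSEC arrays in the fit 0 of the 19 passed, while 493 of all probe sets did, and 2 of the 19 passed without LSEC Cre+ replicate 2.

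Stretches upstream of a Tgfb2 start and the Smad3 start are shown because probe sets of these genes rose in LSEC (for Smad3 1 of 3). Both genes also have an entry in the RefSeq promoter table used (build GRCm38.p6). Each holds the 250 bases before the start site that the table gives, 5′ to 3′ on the gene's strand, and capitals mark the letters CAGACA, which contain the box that SMAD3 and SMAD4 are known to bind. The Smad3 start is the annotated 5′ end of the gene, whereas the single Tgfb2 start in the table lies 3708 bases inside the annotated gene, so the Tgfb2 stretch is not the region before that gene's 5′ end.
Tgfb2 internal start, chr1:186705990-186706239, minus strand: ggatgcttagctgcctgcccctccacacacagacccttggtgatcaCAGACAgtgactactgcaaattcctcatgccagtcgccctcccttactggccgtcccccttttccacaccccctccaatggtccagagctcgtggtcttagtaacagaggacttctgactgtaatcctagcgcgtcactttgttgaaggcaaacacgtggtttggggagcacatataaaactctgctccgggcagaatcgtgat
Smad3 gene start, chr9:63757995-63758244, minus strand: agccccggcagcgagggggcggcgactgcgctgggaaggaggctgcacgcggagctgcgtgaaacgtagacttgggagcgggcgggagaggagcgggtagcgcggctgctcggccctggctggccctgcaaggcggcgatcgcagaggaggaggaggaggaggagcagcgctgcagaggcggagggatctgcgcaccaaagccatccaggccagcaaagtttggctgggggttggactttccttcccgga

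The windows searched ran from 250 bases before to 50 bases after the start, both strands were read, and none of the 3 motifs contains another. The table held 8 such windows for 6 of the 10 genes, 1 each for Tgfb1, Tgfb2, Tgfbr2 and Smad3 and 2 each for Ltbp1 and Tgfbr1. For FoxO only the exact letters GTAAACA were searched, and no variant of them. They were in 0 of the 8 and in 3.6% of all 32851 promoter windows. The SMAD palindrome GTCTAGAC was in 0 of 8 and in 0.2% of all windows. CAGACA was in 3 of 8 windows and in 21.0% of all windows. In Tgfb2 its first base lies at -204 from that internal start site, and the other matches were in a second window of Ltbp1 and a second window of Tgfbr1, whose starts lie 173301 and 32994 bases inside those genes. All 3 windows with a match are thus at internal starts. A match is only a run of letters, and its absence says nothing of binding elsewhere.

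Tgfb2 encodes one of the 3 TGF-beta ligands and has 4 probe sets, of which 1423250_a_at, 1450922_a_at and 1450923_at were designed from the same sequence record and are not independent. Tgfb2 1423250_a_at had levels of 7.54, 7.89 and 8.0 in LSEC Cre+ arrays, against 7.19, 7.32 and 6.93 in LSEC controls. The lowest Cre+ array lay above the highest control. The means were 7.81 ± 0.24 and 7.15 ± 0.20 (SD, n = 3 each), a log2 fold change of 0.66 (SE 0.14, 95% interval 0.34 to 0.98, adjusted p = 0.024), or 1.58-fold. Tgfb2 1450923_at had levels of 6.95, 6.96 and 7.33 in Cre+ arrays, against 6.58, 6.32 and 6.39 in controls, again without overlap and with the controls under the filter level. Its log2 fold change was 0.65 (SE 0.12, interval 0.38 to 0.91, adjusted p = 0.0112), or 1.57-fold. The call of 1423250_a_at was lost without LSEC Cre+ replicate 2 or 3 or LSEC control replicate 1 or 3 (log2 fold changes 0.62, 0.57, 0.68 and 0.55, adjusted p = 0.0695, 0.0875, 0.0556 and 0.077), while that of 1450923_at was kept without each array. The dimmer 1438303_at and 1450922_a_at were not tested. Tgfb2 1438303_at stood at 5.35, 4.81 and 5.89 in Cre+ arrays and 4.03, 3.70 and 2.92 in controls, and 1450922_a_at at 6.58, 6.39 and 7.04 in Cre+ arrays and 5.74, 4.72 and 5.35 in controls. In both, every Cre+ array lay above every control, with mean differences of 1.80 and 1.40. Every group mean of both was under the filter level, so these values are descriptions. The untested Foxo1 1456529_at, also dim, differed by 1.73 in the same arrays, opposite in direction to the tested Foxo1 probe sets.

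In lung and thymus the tested Tgfb2 probe sets did not pass. In lung 1423250_a_at had levels of 7.57 and 7.63 in Cre+ arrays, against 7.81 and 7.87 in controls, a log2 fold change of -0.24 (interval -0.63 to 0.15, adjusted p = 1). In thymus it had 7.69 and 7.70 in Cre+ arrays, against 7.69 and 7.28 in controls, a log2 fold change of 0.20 (interval -0.18 to 0.59, adjusted p = 0.725). The untested 1438303_at differed by -0.48 in lung and by 1.39, without overlap, in thymus, and the untested 1450922_a_at by -0.34 and -0.3. The LSEC effect minus the lung effect was 0.90 for 1423250_a_at (interval 0.40 to 1.40, adjusted p = 0.151) and 0.81 for 1450923_at (interval 0.39 to 1.23, adjusted p = 0.124). The LSEC effect minus the thymus effect was 0.46 (adjusted p = 0.359) and 0.70 (adjusted p = 0.1) for the same probe sets. None of these 4 differences passed, so a different response of Tgfb2 in LSEC was not shown.

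Tgfb1, the most widely expressed of the ligands, had no probe set that passed in any tissue. Tgfb1 1420653_at had levels of 10.05, 9.81 and 9.83 in LSEC Cre+ arrays, against 9.80, 9.73 and 9.95 in LSEC controls. The arrays were interleaved, and the log2 fold change was 0.07 (interval -0.17 to 0.31, adjusted p = 0.775). In lung its levels were 10.32 and 10.52 in Cre+ arrays and 10.79 and 10.51 in controls, and in thymus 10.06 and 9.93 in Cre+ arrays and 9.98 and 9.88 in controls. Tgfb1 1445360_at stayed between 8.04 and 9.13 over the 14 arrays and did not follow the first probe set (r = -0.0351 over 14 arrays, a description). Levels were spread narrowly, as the group means of 1420653_at covered 0.83 log2 units over the 6 groups.

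Tgfb3, a ligand known for its roles in palate and lung development, was near the bottom of the scale outside lung. Tgfb3 1417455_at had levels of 4.17, 4.89 and 2.89 in LSEC Cre+ arrays, against 5.72, 4.08 and 5.72 in LSEC controls. The groups overlapped, and the log2 fold change of -1.19 (interval -2.36 to -0.02, adjusted p = 0.254) came from levels under the filter level. In lung it had 8.34 and 8.41 in Cre+ arrays and 8.56 and 8.28 in controls, a log2 fold change of -0.05 (interval -1.48 to 1.39, adjusted p = 1). In thymus it had 4.65 and 5.57 in Cre+ arrays and 5.19 and 4.36 in controls (log2 fold change 0.33, adjusted p = 0.902).

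Ltbp1, which binds the latent ligand and tethers it to matrix, was bright in lung and dim elsewhere. Ltbp1 1448870_at had levels of 6.17, 6.20 and 6.14 in LSEC Cre+ arrays, against 6.18, 5.48 and 5.12 in LSEC controls. The Cre+ arrays lay close together and 1 control reached them, and the log2 fold change was 0.57 (interval 0.11 to 1.04, adjusted p = 0.16) at levels under the filter level. It passed without that control, LSEC control replicate 1 (0.87, adjusted p = 0.00836). In lung it had 10.69 and 10.57 in Cre+ arrays and 10.51 and 10.64 in controls (log2 fold change 0.05, interval -0.51 to 0.62). In thymus it had 5.95 and 5.97 in Cre+ arrays and 5.37 and 5.77 in controls (log2 fold change 0.39, adjusted p = 0.62). The other Ltbp1 probe sets lay between 2.21 and 6.43 on every array and were not tested.

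**Figure D1:**
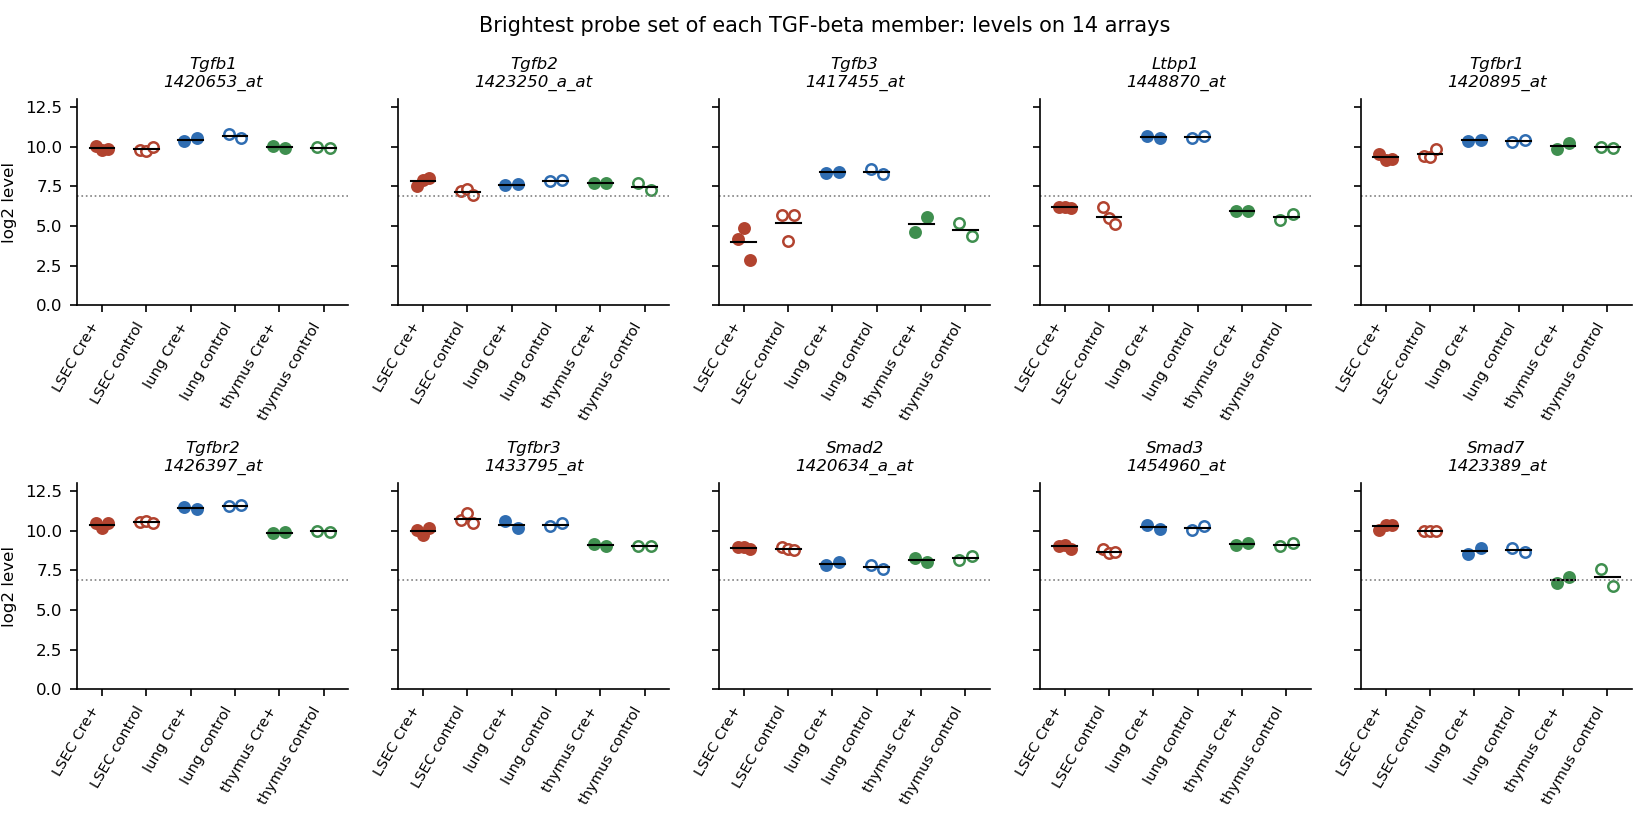
Log2 level (vertical axis) of the brightest probe set of each of the 10 genes on the 14 arrays, with filled points for Cre+ and open points for control arrays, bars for group means and a dotted line at the filter level of 6.868. Ltbp1 and Tgfb3 lie above the line in lung only, Smad7 is brightest in LSEC, and the Cre+ and control points are separated in LSEC for Tgfb2, Tgfbr3, Smad3 and Smad7, of which the Smad3 and Smad7 probe sets shown did not pass the test.

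Tgfbr3 (betaglycan), the co-receptor that presents TGF-beta ligands to Tgfbr2 and is known to matter most for TGF-beta 2, fell in LSEC, on 1 probe set of a pair. Tgfbr3 1433795_at had levels of 10.04, 9.70 and 10.15 in LSEC Cre+ arrays, against 10.67, 11.11 and 10.46 in LSEC controls. Every Cre+ array was below every control. The means were 9.96 ± 0.23 and 10.74 ± 0.33 (SD, n = 3 each), a log2 fold change of -0.78 (SE 0.18, interval -1.17 to -0.39, adjusted p = 0.0276), or 1.72-fold lower. Tgfbr3 1425620_at had levels of 8.40, 8.31 and 8.39 in Cre+ arrays, against 8.48, 8.86 and 8.76 in controls. Here too the groups were apart, but the log2 fold change of -0.33 (interval -0.55 to -0.12) had an adjusted p of 0.0818. The call of 1433795_at was lost without LSEC Cre+ replicate 1 or 2 or LSEC control replicate 1 or 2 (log2 fold changes -0.82, -0.65, -0.82 and -0.60, adjusted p = 0.0569, 0.0835, 0.0582 and 0.0796), and 1425620_at passed without LSEC control replicate 1 (-0.44, adjusted p = 0.0239). In a bulk sample fewer cells of a type and less RNA per cell cannot be told apart, and the LSEC marker list was lower in the same Cre+ arrays, by the levels given above. The part of that marker shift in the values of Tgfbr3, and in those of Tgfb2 and Smad3 in the same arrays, was not tested. Macrophage markers spanned 9.43 to 10.53 over the LSEC Cre+ arrays and 9.37 to 10.54 over the controls, and their part was not tested either.

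Tgfbr3 1433795_at did not pass in the other tissues. In lung it had 10.58 and 10.16 in Cre+ arrays and 10.27 and 10.47 in controls, a log2 fold change of 0.00 (interval -0.47 to 0.48). In thymus it had 9.18 and 9.02 in Cre+ arrays and 9.04 and 9.0 in controls, a log2 fold change of 0.08 (interval -0.40 to 0.55). The LSEC effect minus the lung effect was -0.78 (interval -1.39 to -0.17, adjusted p = 0.359) and minus the thymus effect -0.86 (interval -1.47 to -0.25, adjusted p = 0.157), neither of which passed.

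The signalling receptors Tgfbr1 and Tgfbr2 had no probe set that passed in any tissue. Tgfbr2 1426397_at, its brightest, had levels of 10.49, 10.13 and 10.50 in LSEC Cre+ arrays, against 10.55, 10.59 and 10.50 in LSEC controls (log2 fold change -0.17, interval -0.39 to 0.05, adjusted p = 0.398). The highest Cre+ array stood level with the lowest control. The second tested probe set, 1425444_a_at, was wider in lung, with 7.29 and 8.68 in Cre+ arrays against 9.15 and 9.24 in controls. Its log2 fold change there was -1.21 (interval -2.02 to -0.40, unadjusted p = 0.00714, adjusted p = 0.747), while 1426397_at differed by -0.15 in the same arrays (11.47 and 11.36 in Cre+, 11.55 and 11.59 in control). The lung Cre+ arrays differed from each other on 1425444_a_at by more than the Cre+ and control means did. Panendothelial markers averaged 9.5 to 9.60 in lung Cre+ arrays and 9.76 to 10.07 in lung controls, and their part in these values was not tested.

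Tgfbr1 1420895_at, its brightest, had levels of 9.56, 9.18 and 9.21 in LSEC Cre+ arrays, against 9.43, 9.34 and 9.83 in LSEC controls (log2 fold change -0.22, interval -0.55 to 0.11). In lung it had 10.34 and 10.43 in Cre+ arrays and 10.28 and 10.43 in controls, and in thymus 9.83 and 10.22 in Cre+ arrays and 9.97 and 9.93 in controls. The Cre+ and control arrays overlapped in all 3 tissues. In thymus the dimmer 1420894_at had 6.24 and 6.25 in Cre+ arrays and 6.67 and 7.03 in controls, a log2 fold change of -0.61 (unadjusted p = 0.045, adjusted p = 0.421).

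Smad3, which carries the receptor signal and binds DNA directly, rose in LSEC on 1 of 3 probe sets. Smad3 1450471_at had levels of 7.12, 7.14 and 6.80 in LSEC Cre+ arrays, against 5.94, 6.17 and 6.50 in LSEC controls. The groups were apart, and the controls lay under the filter level. The means were 7.02 ± 0.19 and 6.20 ± 0.28 (SD, n = 3 each), a log2 fold change of 0.82 (SE 0.15, interval 0.48 to 1.16, adjusted p = 0.0114), or 1.76-fold, and the call was kept without each array. The brighter 1454960_at had 9.05, 9.12 and 8.86 in Cre+ arrays, against 8.81, 8.58 and 8.65 in controls (log2 fold change 0.33, interval 0.09 to 0.58, adjusted p = 0.118). Smad3 1450472_s_at had 8.49, 8.32 and 8.26 in Cre+ arrays, against 8.03, 8.08 and 8.22 in controls (log2 fold change 0.25, interval -0.01 to 0.50, adjusted p = 0.276). On both of these the groups did not overlap, with smaller differences than on 1450471_at. The probe sets 1450471_at and 1450472_s_at were designed from the same sequence record.

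Smad3 1450471_at ran the other way in lung, with 7.85 and 8.0 in Cre+ arrays against 8.31 and 8.55 in controls, a log2 fold change of -0.50 (interval -0.92 to -0.09, unadjusted p = 0.0215, adjusted p = 0.963). Both lung Cre+ arrays lay below both controls, and the difference did not pass. In thymus the levels were 6.54 and 6.86 in Cre+ arrays and 6.50 and 6.59 in controls (log2 fold change 0.16, adjusted p = 0.818). The LSEC effect minus the lung effect was 1.32 (SE 0.24, interval 0.79 to 1.86, adjusted p = 0.0525), just short of the threshold, where 0.318% of all probe sets passed. It passed without LSEC Cre+ replicate 3 or LSEC control replicate 3 (1.43 and 1.47, adjusted p = 0.0415 and 0.0314) and under 5 other processing choices (adjusted p = 0.0201 to 0.042). It did not pass with no filter, with only the arrays compared or with replicate number as a block. Nor did it pass on leaving out any other array, each lung array included. On 1454960_at, the brightest, the same difference was 0.25 (interval -0.13 to 0.63, adjusted p = 0.686) and on 1450472_s_at 0.59 (interval 0.19 to 0.99, adjusted p = 0.257).

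Smad2, the partner of Smad3 in carrying the receptor signal, had no probe set that passed between genotypes. Smad2 1420634_a_at had levels of 8.96, 8.98 and 8.81 in LSEC Cre+ arrays, against 8.99, 8.83 and 8.79 in LSEC controls (log2 fold change 0.05, interval -0.21 to 0.30). The arrays of both genotypes were interleaved. Its log2 fold change was 0.21 in lung (interval -0.11 to 0.52) and -0.11 in thymus (interval -0.42 to 0.21).

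Smad7, the inhibitory SMAD that blocks the type I receptor and is itself induced by TGF-beta, had no probe set that passed between genotypes. Smad7 1423389_at had levels of 10.05, 10.37 and 10.36 in LSEC Cre+ arrays, against 9.96, 9.99 and 9.97 in LSEC controls. The Cre+ arrays were all above the controls, with a log2 fold change of 0.28 (interval -0.22 to 0.78, adjusted p = 0.552). The second probe set, 1443771_x_at, had 10.11, 10.32 and 10.44 in Cre+ arrays, against 9.81, 9.96 and 9.86 in controls (log2 fold change 0.41, interval 0.02 to 0.80, adjusted p = 0.23), and it followed the first with r = 0.993 over 14 arrays. In lung 1423389_at had 8.54 and 8.90 in Cre+ arrays and 8.91 and 8.66 in controls. In thymus it had 6.67 and 7.06 in Cre+ arrays and 7.57 and 6.53 in controls, and neither tissue separated the genotypes.

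**Figure D2:**
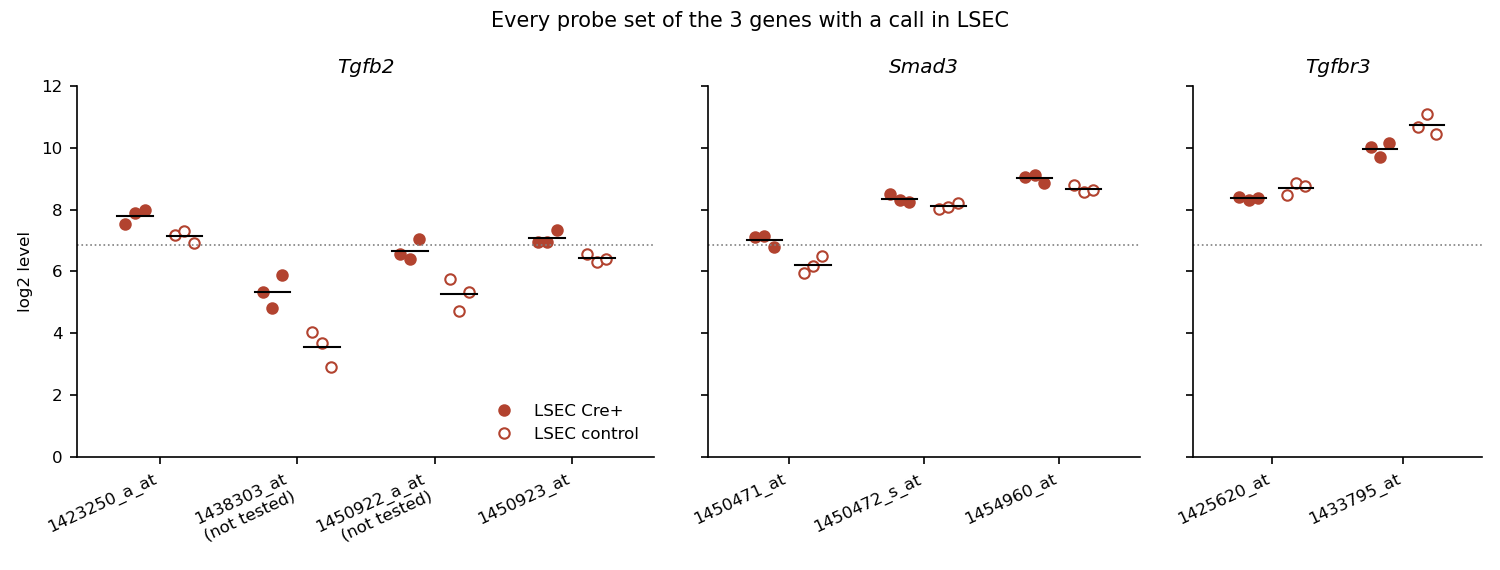
Log2 level (vertical axis) of every Tgfb2, Smad3 and Tgfbr3 probe set on the 3 LSEC Cre+ arrays (filled) and 3 LSEC control arrays (open), with bars for group means and a dotted line at the filter level of 6.868. Cre+ points lie above control points on all Tgfb2 and Smad3 probe sets and below them on both Tgfbr3 probe sets, with the 2 dim Tgfb2 probe sets marked as not tested.

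In lung 0 of the 19 probe sets passed in limma, where 0.0333% of all did, and 3 had an unadjusted p under 0.05, 1 of Tgfbr2 and 2 of Smad3. The groups of 2 and 2 arrays did not overlap for 7 of the 19, against a background of 39.3%. The median log2 fold change was -0.07, beside 0.01 over all. In thymus 0 of 19 passed in limma, where 0.448% of all did, and 1 had an unadjusted p under 0.05, the Tgfbr1 1420894_at above. The groups did not overlap for 5 of 19, against 42.4% of all, and the median was -0.01, beside 0.01 over all.

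No TGF-beta probe set passed a limma test of the difference in Cre+ effect between tissues. For LSEC minus lung 0 of 19 passed, where 0.318% of all did, and 6 had an unadjusted p under 0.05. For LSEC minus thymus 0 of 19 passed, where 1.65% of all did, and 4 had an unadjusted p under 0.05, among them Smad7 1443771_x_at with a difference of 0.88 (interval 0.26 to 1.49, adjusted p = 0.149), which passed without thymus control replicate 2 (1.28, adjusted p = 0.0354). For lung minus thymus 0 of 19 passed, where 0.0222% of all did, and 1 had an unadjusted p under 0.05, Smad3 1450471_at with -0.66 (adjusted p = 0.646). The LSEC calls are thus not shown to be particular to LSEC.

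**Figure D3:**
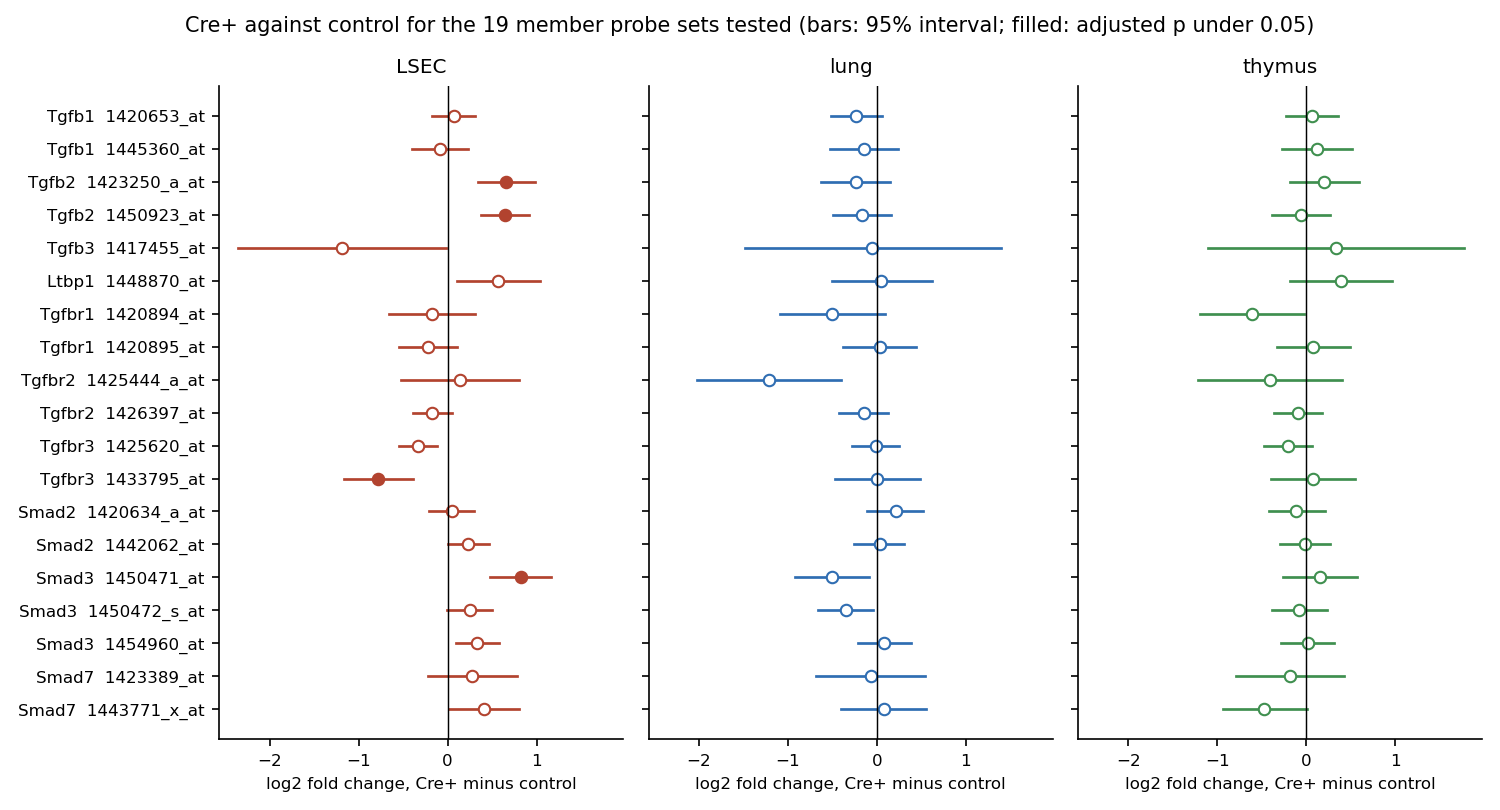
Log2 fold change, Cre+ minus control (horizontal axis), with its 95% interval for the 19 TGF-beta probe sets tested in LSEC, lung and thymus, with filled points where the adjusted p was under 0.05. The filled points are the Tgfb2 pair, Tgfbr3 1433795_at and Smad3 1450471_at in LSEC, and the widest intervals are those of Tgfb3.

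Among control arrays, most TGF-beta probe sets tested differed between LSEC and lung. Control LSEC differed from control lung endothelial cells on 16 of 19 probe sets, 5 higher and 11 lower, where 43.4% of all passed (23.4% higher and 20% lower). The groups of 3 and 2 did not overlap for 16 of 19, against a background of 66.2%. Of the 11 lower ones, 4 had a control LSEC mean under the filter level (Ltbp1 1448870_at, Tgfb3, Smad3 1450471_at and Tgfb2 1450923_at). These 4 were tested because lung was bright, which favours a difference, so the counts and the values of these 4 are descriptions. Each of the 10 genes had at least 1 probe set that passed.

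Ltbp1 and the 3 ligands each had a tested probe set that was lower in control LSEC than in control lung. Ltbp1 1448870_at averaged 5.60 ± 0.54 in control LSEC (SD, n = 3) and 10.58 ± 0.09 in control lung (SD, n = 2), a log2 difference of -4.98. Tgfb3 averaged 5.17 ± 0.95 in control LSEC and 8.42 ± 0.20 in control lung, a difference of -3.24. Ltbp1 and Tgfb3 in LSEC lay under the filter level on every control array. The log2 difference was -0.83 for Tgfb1 1420653_at and -0.69 and -0.52 for Tgfb2, the last of them on the dim 1450923_at. The other Tgfb1 probe set, 1445360_at, did not pass (-0.08, adjusted p = 0.715 in limma). Stellate, fibroblast and mural markers, genes of matrix-producing and vessel wall cells, averaged 6.87 to 7.29 in control LSEC arrays and 9.92 to 10.07 in control lung arrays, where 12 of 12 markers lay over the filter level. The part of those cells in the lung levels of Ltbp1 and Tgfb3 was not tested.

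Receptors and SMADs were split between these tissues. Control LSEC minus control lung was -1.03 and -1.55 for Tgfbr2, -0.82 for Tgfbr1 1420895_at, and -2.23, -0.72 and -1.47 on the 3 probe sets of Smad3, of which 1450471_at (-2.23) was dim in control LSEC. Smad7 was higher in control LSEC by 1.19 and 1.76, Smad2 by 1.15 and 0.35, and Tgfbr3 1425620_at by 0.53. The inhibitory SMAD and Smad2 were thus brighter in control LSEC, while Smad3 and Tgfbr2 were brighter in control lung. The lung arrays also carried the lung epithelial, stellate, fibroblast and mural markers given above. The part of those cells in these receptor and SMAD differences was not tested. The probe sets that did not pass were Tgfb1 1445360_at, Tgfbr1 1420894_at and Tgfbr3 1433795_at.

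Control thymus differed from control LSEC on 12 of 19 probe sets, 3 higher and 9 lower, where 66.1% of all passed (32.6% higher and 33.5% lower), a share close to that of the TGF-beta probe sets. The split depended on scaling, as it was 1 higher and 9 lower with median centring and 5 higher and 7 lower in the values as deposited. Those scalings also moved the median difference of all probe sets tested, which was -0.106 with median centring and 0.122 as deposited, beside -0.02 after quantile normalisation. Without thymus control replicate 2 the count was 8. Smad7 averaged 7.05 ± 0.74 in control thymus (SD, n = 2) and 9.97 ± 0.01 in control LSEC (SD, n = 3) on 1423389_at, a log2 difference of -2.93, and differed by -3.58 on 1443771_x_at, whose control thymus mean of 6.29 was under the filter level. The differences were also negative for Tgfbr3 (-1.72 and -0.47), Tgfbr2 (-0.58 and -1.44), Smad2 (-0.60 and -0.43) and Tgfb2 1450923_at (-0.45), and the 3 higher in thymus were Tgfb1 1445360_at (0.49), Tgfbr1 1420895_at (0.42) and Smad3 1454960_at (0.44). Among the 9 lower, Tgfbr2 1425444_a_at (-1.44) and Tgfb2 1450923_at (-0.45) also had control thymus means under the filter level, which makes 3 with Smad7 1443771_x_at. Control thymus differed from control lung on 13 of 19 probe sets, 1 higher and 12 lower, where 62.2% of all passed (32.1% higher and 30.2% lower). The total was thus again close to the background, while its split leaned lower. Of the 12 lower ones 6 had a control thymus mean under the filter level and were tested through a brighter tissue, Ltbp1 and Tgfb3 among them. The log2 difference was -5.01 for Ltbp1 and -3.64 for Tgfb3, given as descriptions, and 0.55 for Smad2 1420634_a_at, which was higher. T cell and thymocyte markers averaged 11.48 to 11.49 in control thymus arrays and 5.92 to 6.29 in control LSEC arrays. Panendothelial markers averaged 6.07 to 6.19 in control thymus, 10.3 to 10.63 in control LSEC and 9.76 to 10.07 in control lung. The part of this cell mixture in the thymus differences was not tested.

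By the brightest probe set of each gene, levels varied most for Ltbp1, Tgfb3 and Smad7. Over the 6 groups the means of Ltbp1 1448870_at covered 5.07 log2 units, those of Tgfb3 4.43 and those of Smad7 1423389_at 3.39. Among the dimmer probe sets tested, Smad7 1443771_x_at covered 4.46 and Tgfbr2 1425444_a_at 3.41. For Ltbp1 and Tgfb3 both lung groups stood first and overlapped each other, and the LSEC and thymus groups followed, interleaved and mostly overlapping their neighbours. For Smad7 the order was LSEC, lung, thymus, and the genotypes overlapped within lung and within thymus. Among the 13033 other genes tested, those whose levels followed Ltbp1 most closely over the 14 arrays were Kirrel (r = 0.992) and Bicc1 (r = 0.989). Those closest to Tgfb3 were Sdc1 (r = 0.974) and Aldh1a2 (r = 0.97), and those closest to Smad7 were Car13 (r = 0.989) and Trim47 (r = 0.988). These correlations are descriptions over 14 arrays that share 3 tissues, so any gene that differs between tissues in the same way scores highly.

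Around the 10 genes, 55 other pathway genes in 4 lists were tested through their brightest probe set. In LSEC 2 rose and 8 fell, where 5.44% of all 13034 genes passed, 2.48% higher and 2.96% lower. In the values as deposited 3 rose and 5 fell, and with median centring 3 rose and 8 fell. The median log2 fold change of the 55 was -0.11, beside 0.01 over all genes. In lung 0 of 55 passed in limma, where 0.046% of genes did, with 1 unadjusted p under 0.05, and in thymus 0 of 55 passed, where 0.391% did.

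Of genes known to respond to TGF-beta, 16 were tested in LSEC, and 1 rose and 4 fell (median -0.10). Cdkn2b, an inhibitor of cell cycle kinases, averaged 7.13 ± 0.11 in Cre+ arrays and 8.96 ± 0.15 in controls (SD, n = 3 each), a log2 fold change of -1.84 (adjusted p = 2.66e-05), or 3.57-fold lower. Ccn2, a matricellular protein also called CTGF, averaged 12.10 ± 0.19 in Cre+ arrays and 13.21 ± 0.11 in controls, a log2 fold change of -1.11 (adjusted p = 0.00157). Snai2, a repressor of epithelial genes, averaged 6.96 ± 0.40 in Cre+ arrays and 8.05 ± 0.16 in controls (-1.09, adjusted p = 0.00489). Col1a2, a fibrillar collagen chain that also stands in the stellate, fibroblast and mural list, averaged 7.69 ± 0.18 in Cre+ arrays and 8.37 ± 0.42 in controls (-0.69, adjusted p = 0.0481). That marker list averaged 6.56 to 7.06 in the LSEC Cre+ arrays and 6.87 to 7.29 in the controls, and its part in Col1a2 was not tested. The Col1a2 call was lost on leaving out any 1 of 12 of the 14 arrays (adjusted p = 0.0532 to 0.152). Tsc22d1, a transcription regulator first found as induced by TGF-beta, averaged 10.93 ± 0.09 in Cre+ arrays and 9.99 ± 0.20 in controls (0.94, adjusted p = 0.00508). Both directions were thus present among the responsive genes, and the calls of Cdkn2b, Ccn2, Snai2 and Tsc22d1 were kept without each array.

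Of intracellular regulators 21 were tested in LSEC, and 1 rose and 3 fell (median -0.01). The SMAD corepressors Tgif1 and Tgif2 changed in opposite directions. Tgif2 averaged 7.88 ± 0.23 in Cre+ arrays and 7.27 ± 0.05 in controls (0.60, adjusted p = 0.00893). Tgif1 averaged 8.50 ± 0.26 in Cre+ arrays and 9.11 ± 0.09 in controls (-0.61, adjusted p = 0.0148). Fkbp1a, which binds the type I receptor and keeps it inactive, fell by 0.42 on the log2 scale (adjusted p = 0.0134), and Ppm1a, a phosphatase that acts on SMAD2 and SMAD3, fell by 0.38 (adjusted p = 0.0188). The calls of Tgif1, Fkbp1a and Ppm1a were each lost without 1 to 3 of the LSEC arrays (adjusted p up to 0.0704), and that of Tgif2 was kept without each array. Smad4, the common partner, averaged 10.62 ± 0.01 in Cre+ arrays and 10.75 ± 0.01 in controls and did not pass (-0.13, adjusted p = 0.351).

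Of the 15 latency and activation genes 13 were on the array and 10 were tested in LSEC, of which 1 fell and 0 rose (median -0.17). That gene was Ltbp2, at 4.63 ± 0.34 in Cre+ arrays and 5.48 ± 0.41 in controls (-0.85, adjusted p = 0.0491), levels under the filter level with groups that overlapped, and the call was lost on leaving out any 1 of 12 of the 14 arrays (adjusted p = 0.0575 to 0.154). Thbs1, which can activate latent TGF-beta, averaged 9.22 ± 0.36 in Cre+ arrays and 9.95 ± 0.34 in controls, without overlap (-0.72, adjusted p = 0.059), and passed without LSEC Cre+ replicate 1 or LSEC control replicate 1 (adjusted p = 0.0291 and 0.0303). Of 8 related receptors 0 passed in LSEC in limma, and 3 had an unadjusted p under 0.05 (median -0.14). Acvrl1, the endothelial type I receptor, averaged 8.14 ± 0.22 in Cre+ arrays and 7.49 ± 0.24 in controls (0.65, adjusted p = 0.0532, and 0.0427 without either thymus Cre+ array), while its co-receptor Eng averaged 11.11 ± 0.25 in Cre+ arrays and 11.52 ± 0.31 in controls (-0.41, adjusted p = 0.238).

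In thymus the medians of the 4 lists were 0.19 for latency, 0.30 for related receptors, 0.04 for intracellular regulators and 0.35 for responsive genes, beside 0.02 over all genes, with no gene past the threshold and 3, 4, 3 and 4 unadjusted p-values under 0.05. The genes nearest to the threshold, picked out after their values were seen, were Snai2, at 6.65 ± 0.07 in Cre+ and 5.59 ± 0.06 in control thymus (1.06, adjusted p = 0.0695), and Itgae, an integrin chain of mucosal T cells, at 9.07 ± 0.24 in Cre+ and 8.18 ± 0.32 in control thymus (SD, n = 2 each, 0.88, adjusted p = 0.0803). Snai2 passed in thymus without LSEC Cre+ replicate 1 or 3 (adjusted p = 0.0214 and 0.0425), which leaves its thymus values unchanged and alters only the estimated spread. It did not pass on leaving out any other array, each thymus array included. Stellate, fibroblast and mural markers averaged 8.24 to 8.32 in thymus Cre+ arrays and 7.79 to 7.89 in thymus controls, and their part in the thymus medians was not tested. In lung the medians were -0.03, 0.14, -0.04 and 0.02.

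**Figure D4:**
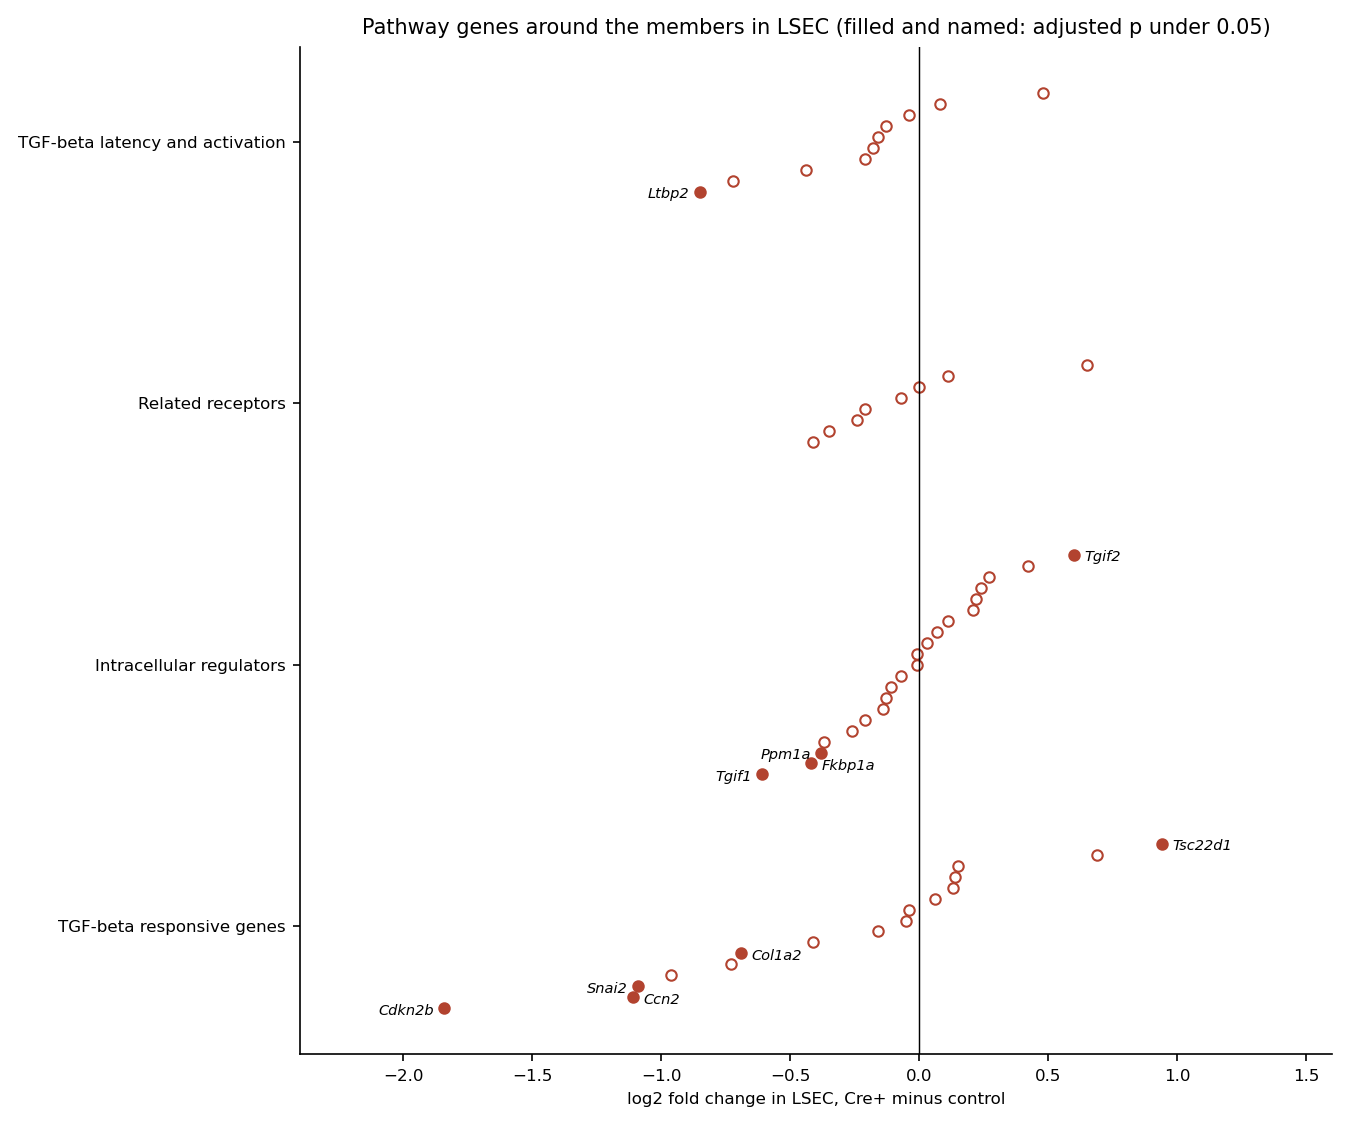
Log2 fold change in LSEC, Cre+ minus control (horizontal axis), of the 55 pathway genes tested in 4 lists (rows, each point 1 gene, spread vertically for legibility), with filled and named points where the adjusted p was under 0.05. Of the filled points 2 lie right of 0 (Tgif2 and Tsc22d1) and 8 lie left of it, the farthest being Cdkn2b at -1.84.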

How the data were processed

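Total RNA from 14 samples was hybridised as biotin-labelled cRNA, 1 sample to each Affymetrix Mouse Genome array, after oligo-dT priming, per the labels' protocols. The values the authors deposited, 1 for each probe set on each array, lie between 0 and 13.8 and were taken as log2 levels. The log base was inferred from that range, and how the authors summarised, background-corrected and normalised the values is not given in the sources used here. Exact zeros numbered 223 to 312 an array. The deposited array medians spread over 0.282 (6.753 to 7.035), above a limit of 0.2, so all arrays were quantile normalised. Replicates of a group correlated with r = 0.968 to 0.987. Array number limits the precision, and no counting depth exists for arrays.

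Of 45101 probe sets 64 were controls, 34945 carried 1 gene symbol, 932 several and 9160 none, from the platform annotation supplied. Symbols were updated through the RefSeq gene table of GRCm38.p6, in which 34754 probe sets matched by gene identifier. Probe sets were tested where the highest tissue mean reached the 40th percentile, 6.868. One model with 6 group means was fitted to the 14 arrays with limma 3.58.1 (lmFit, eBayes) in R 4.3.3. The residual degrees of freedom were 8 and the prior ones 3.03, and p-values were adjusted by Benjamini-Hochberg over 27022 probe sets per contrast. The fit was also run on simulated data with independent normal noise, and no result here rests on that run. Pathway and marker genes were read through their brightest probe set. A list's mean level per array is the mean log2 level of its genes. Outside the 10 genes, up to 4 passing genes with the largest change were named per list and tissue (all where 5 or fewer passed), and genes named beyond that rule, such as Smad4, Thbs1, Acvrl1, Eng, Snai2 and Itgae in thymus, were chosen after their values were seen. The members, lists, tests and alternatives were chosen with earlier results of these data known.

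Deviations of same-numbered Cre+ and control samples from their group means correlated with r = -0.242, -0.0669 and -0.171 in LSEC, -0.211 in lung and 0.0677 in thymus. Samples of different number gave -0.0872 to 0.25 in LSEC. With 2 arrays a group the crossed pairs only change the sign, to 0.211 in lung and -0.0677 in thymus. These values cannot decide whether samples were paired, and the main fit used no replicate block. The alternatives concerned scaling (median centring, or none beyond the deposited values), the filter (none, or the 60th percentile), the features tested (brightest probe set per gene only), the fit (limma's trend and robust options, array weights, a fit to the compared arrays alone, replicate number as a block), a limit of 2-fold, and each array left out in turn. No scan dates were used, and batches were not analysed here.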

Additional observations from a re-analysis of the deposited data

How the results depend on the processing

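No direction of a called value reversed under any alternative run. Of the single log2 fold changes under the alternatives, 8415 kept their side of the threshold, 192 lost a call and 54 gained one. The 4 TGF-beta calls in LSEC became 2 with no filter, 2 with the stricter filter and 2 with genes only. The stricter filter tested 15 TGF-beta probe sets and genes only 10, so a call could also be lost because its probe set was not tested. They became 0 with a 2-fold limit, since all 4 changes are smaller, and 0 with only the arrays compared. That fit estimates the spread from the LSEC arrays alone, and why the calls were lost in it was not tested. They were 4 with median centring, trend and robust options or array weights and 3 as deposited. Leaving out 1 array gave 2 to 4. Tgfb2 1450923_at kept its call under 19 of 22 alternatives, Smad3 1450471_at under 20 of 24, Tgfbr3 1433795_at under 16 of 25 and Tgfb2 1423250_a_at under 15 of 24. All called probe sets in LSEC numbered 1409, and 810 with no filter, 493 with only the arrays compared and 368 with a 2-fold limit.

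The 10 pathway genes called in LSEC became 3 with only the arrays compared and 3 with a 2-fold limit, and 7 to 10 on leaving out 1 array. The 0 pathway genes in thymus became 1 with the stricter filter and 3 with trend and robust options, and 0 to 1 on leaving out 1 array. For the LSEC effect minus the lung effect, 0 became 1 with median centring, as deposited, with the stricter filter, with trend and robust options and with array weights, each time Smad3 1450471_at, and 0 to 1 on leaving out 1 array. For the LSEC effect minus the thymus effect, leaving out 1 array gave 0 to 1. The cause of these shifts was not tested.

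Between control tissues, the 16 calls of LSEC against lung became 9 with genes only, where 10 probe sets are tested, and 9 with a 2-fold limit, and 14 to 16 on leaving out 1 array. The 12 of thymus against LSEC became 6 and 4 under these settings, and 8 to 13 on leaving out 1 array, and the 13 of thymus against lung became 8 with genes only and 12 to 14 on leaving out 1 array.

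With the replicate number as a block, LSEC gave 0 TGF-beta calls, 5 pathway calls and 600 calls over all probe sets. The labels do not say whether same-numbered samples were paired. Crossing the lung numbers in the replicate block, an alternative chosen after seeing the data, gave 1 and 5 such calls. With 2 or 3 arrays a group, small differences and levels near the filter level cannot be resolved, and lung and thymus rest on 2 arrays a group.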
